A study of Danio rerio with 2 samples.

Results

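The regions described here are open chromatin regions near protein-coding genes of the zebrafish that lie outside the body of their assigned gene and more than 1000 bp from its transcription start site (TSS). They are called flanking regions in what follows. They were chosen by the annotation in the deposited table alone: an assigned gene of the protein-coding type, a distance from region centre to TSS above 1000 bp, and a listed overlap with the gene body of 0. Regions on chromosome 4 beyond position 27000000 were left out. This rule gave 2297 regions at 2131 genes, of 35854 regions in all. The other classes used for comparison were 12366 regions within 1000 bp of a protein-coding TSS (TSS regions), 1558 regions beyond 1000 bp that overlap the gene body, and 18370 regions with no assigned gene.

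Most flanking regions were upstream of their gene, but not all. By strand and coordinates, 2069 lay upstream and 228 (9.93%) lay past the 3′ end. The genes with a region past the 3′ end were short, with a median length of 2104 bp against 15478 bp for the others. In 1991 cases (86.7%) the centre was upstream and within 5000 bp of the TSS. A further check of the distances found 95 regions with a centre beyond 5000 bp, up to 22971 bp, although the nearest edge of every flanking region was within 4999 bp. Only 15 were nearer to the TSS of another gene in the table than to their own. A deposited symbol was present for 2045 of them, 157 could be named by identifier from a gene name table, and 95 stayed without a symbol.

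Accessibility was measured by ATAC-seq. The Tn5 transposase cuts DNA where nucleosomes are absent, so reads pile up in open regions. There were 2 libraries, each from a single whole embryo at the 1-somite stage, after the chorion and the yolk had been taken off. One embryo was wild type and the other had the genotype npas4lbns297/bns297, homozygous for a mutant allele of npas4l, and the growth protocol names the AB strain. With 1 library per genotype there was no replicate, so no difference below was tested and embryo-to-embryo variation is unknown. The values are the authors' normalised read counts, rounded to whole numbers. By the factors given below, they stand for 7853828 wild type and 7066666 mutant reads over all regions. Of these, 732332 and 637255 were in flanking regions. The 95% intervals below are Clopper-Pearson intervals of the split of a region's reads between the libraries. They cover counting error only and not variation between embryos. Reads amplified by PCR without molecular identifiers are not independent molecules, so the intervals can also be too narrow.

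The npas4l gene encodes a basic helix-loop-helix PAS transcription factor that acts at the top of blood and vessel formation in the zebrafish, where its loss is known from the cloche mutant. Regions a few kilobases from a gene can hold enhancers, to which transcription factors bind, as well as promoters that the gene models miss. Enhancers differ more between cell types than promoters do, and in a whole embryo the signal of a region is summed over all cells. A lower value can come from fewer cells of a type or from less open chromatin per cell, and whole-embryo libraries cannot tell these apart.

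Flanking regions were lower and narrower than TSS regions and close to the regions inside gene bodies. Their median wild type level was 98 normalised reads (quartiles 52 and 195), against 157 for TSS regions, 93 for regions in gene bodies and 71 for regions with no assigned gene. The median width was 354 bp, against 511, 347 and 335 bp in the same order. Per kilobase of width the medians were 268, 297, 264 and 208 normalised reads, so the gap to TSS regions was smaller per length than per region. Within the flanking regions, wider regions had higher levels (Spearman 0.62 between wild type level and width over 2297 regions, as a description), while level showed no trend with distance from the TSS (Spearman 0.0048). Median wild type levels ran from 91.5 to 128 over 5 bins of distance, without an order.

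**Figure D1:**
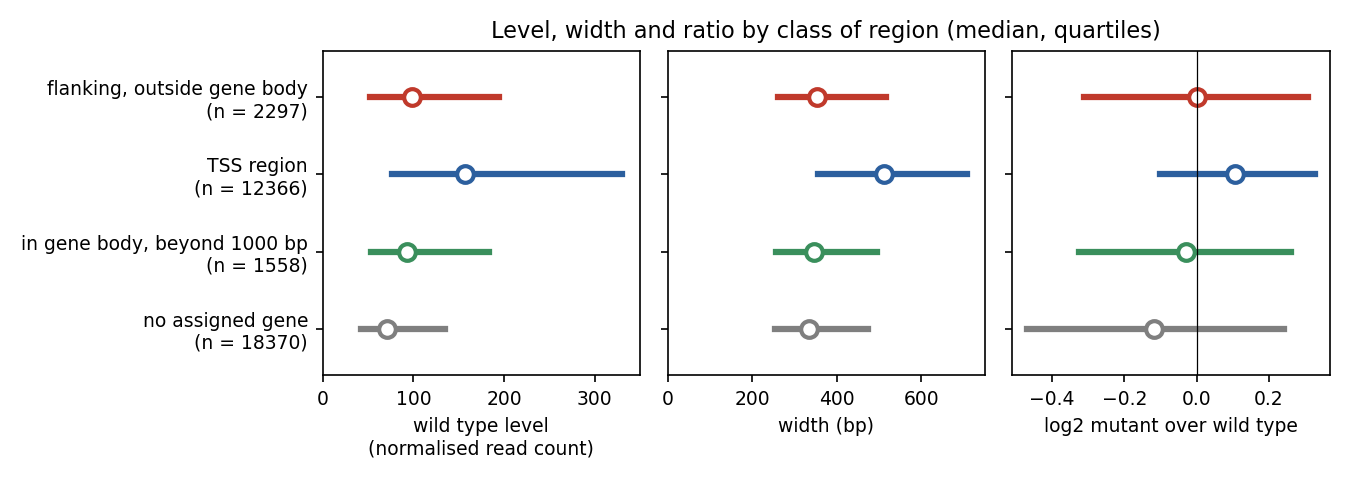
Median (circle) and quartiles (bar) of wild type level in normalised read counts, width in bp and log2 ratio of mutant over wild type for 4 classes of regions. Flanking regions have a median level of 98 and a median width of 354 bp, below the 157 and 511 bp of TSS regions, and a median log2 ratio of 0.00.

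Between the libraries the flanking regions as a class were balanced. The ratio used is log2 of the mutant over the wild type value, each with a pseudocount of 1. Its median was 0.00, and 1121 of 2297 (48.8%) were below 0. At least 2-fold lower in the mutant were 82 flanking regions (3.57%), against 4.03% of all regions, and at least 2-fold higher were 117 (5.09%), against 3.78% of all regions. The counting interval lay wholly below 0 in 419 (18.2%; 18.0% of all regions) and wholly above 0 in 480 (20.9%; 20% of all regions). These shares were near the background of the whole table. TSS regions had a median of 0.11 with 35.9% below 0, regions in gene bodies had -0.03 with 52.2%, and regions with no assigned gene had -0.12 with 58.7%. In distance bins from 1000 bp outwards the medians of flanking regions were between -0.02 and 0.07. Levels in both libraries followed each other (Spearman 0.894 over regions).

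**Figure D2:**
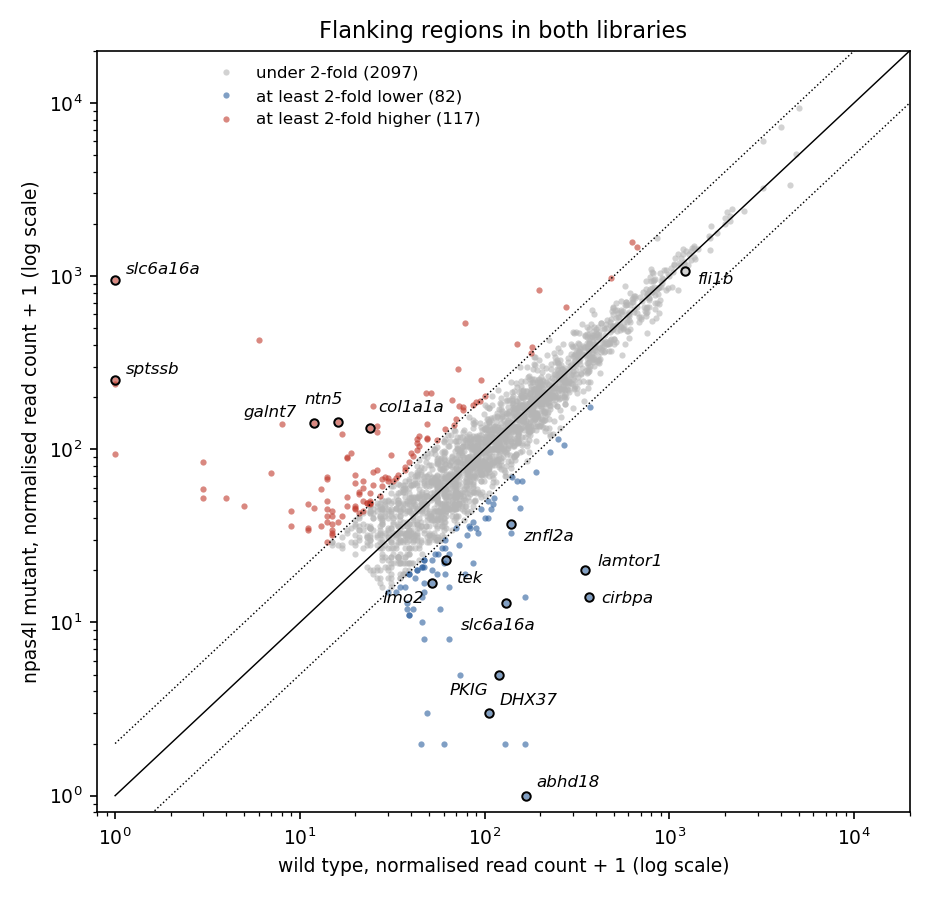
Normalised read count + 1 of each flanking region outside chromosome M in wild type (horizontal) and mutant (vertical), both on log scales; the solid line marks equal values and the dotted lines a 2-fold difference. Most regions lie between the dotted lines, 82 lie below and 117 above, and abhd18, slc6a16a and sptssb each have a region at 0 in 1 library.

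The sign of the ratio went with the width of the region. Of 507 flanking regions under 250 bp, 58.8% were below 0, with a median of -0.15. The share was 52.3% of 1175 regions from 250 to under 500 bp (median -0.03), 35.6% of 519 regions from 500 to under 1000 bp (median 0.12) and 25.0% of 96 regions of 1000 bp or more (median 0.13). The same order held at like levels: where both libraries averaged 200 to 500 normalised reads, the median was -0.09 for 171 regions under 500 bp and 0.12 for 221 wider ones. It was not particular to flanking regions, since TSS regions went from 0.00 to 0.16 and regions with no assigned gene from -0.29 to 0.37 between the narrowest and the widest bin. Width also went with how a gene was annotated: 41.6% of flanking regions under 250 bp belonged to a gene without a TSS region in the table, and 64.6% of those of 1000 bp or more. The part of width in the ratios of single genes was not tested.

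**Figure D3:**
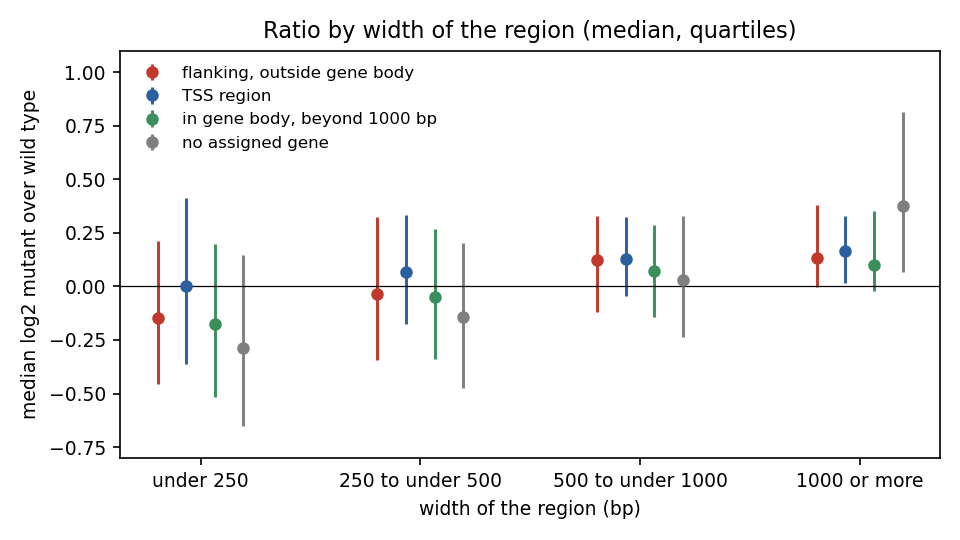
Median (point) and quartiles (bar) of log2 mutant over wild type in 4 bins of region width, in bp, for 4 classes of regions. For flanking regions the median goes from -0.15 under 250 bp to 0.13 at 1000 bp or more, and the quartiles of neighbouring bins overlap.

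Genes of transcription factors and signalling pathways took a larger share of flanking regions than of TSS regions. The 9 lists of transcription factor families held 10.4% of flanking regions, 4.75% of TSS regions and 11.1% of regions in gene bodies. The 5 lists of signalling pathways held 4.48%, 2.44% and 5.78%, and 4 housekeeping lists 3.44%, 6.02% and 3.15%. In the mutant, 143 of 238 transcription factor regions were below 0 (60.1%, median -0.10), against 47.5% of the other flanking regions (median 0.01). This was not particular to flanking regions. On the same lists, 106 of 173 regions in gene bodies were below 0 (61.3%, median -0.11), and 50.6% of TSS regions (median -0.01). None of the 238 was at least 2-fold lower and 3 were at least 2-fold higher, against 4.03% and 3.78% of all regions. Counting intervals lay below 0 in 61 and above 0 in 23, against 18.0% and 20% of all regions. Their median width was 308 bp against 362 bp for the others. Within bins of width, regions of both kinds of lists together were below the other flanking regions by unequal amounts. Their medians were -0.21 and -0.14 under 250 bp, -0.10 and -0.02 from 250 to under 500 bp, -0.07 and 0.15 from 500 to under 1000 bp, and 0.12 and 0.14 at 1000 bp or more, where the lists had 9 regions.

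Most genes, 1978 of 2131, had a single flanking region, and 153 had more. Of genes with 1 flanking region, 10.7% were on the transcription factor or signalling lists, of those with at least 2 it was 30.1%, and of those with at least 3 it was 7 of 12. In the 153 genes, all regions were below 0 in 42 and above 0 in 38. The gene with the most was her7, a hairy-related repressor of the somite clock, with 4. Its regions had 125, 100, 61 and 58 normalised reads in wild type and 89, 112, 56 and 43 in the mutant. Only the first, 1807 bp upstream, had an interval away from 0 (log2 -0.49, -0.89 to -0.08). At id1, an inhibitor of basic helix-loop-helix factors that BMP signalling induces, all 3 regions were lower: 515 in wild type and 414 in the mutant at 1666 bp, 576 and 407 at 2400 bp, and 413 and 314 on the 3′ side. Each id1 interval lay below 0, and its TSS region had 1526 and 1309. The 3 regions of rbfox2, a splicing regulator, had 236, 357 and 502 in wild type and 181, 313 and 432 in the mutant. At msx1a, a homeobox factor of the neural plate border and neural crest, the 3 regions were nearly level, with 875, 163 and 100 in wild type and 864, 154 and 109 in the mutant. For bmp7a, a BMP ligand, the region 4526 bp upstream had 236 and 144 (log2 -0.71) while the one 3056 bp upstream had 26 and 53 (log2 1.00). Both bmp7a intervals excluded 0, so neighbouring regions of 1 gene lay on opposite sides.

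Of 17 genes known from blood, vessel and heart formation that were looked up, 6 had a flanking region. The region 3863 bp upstream of lmo2, an adaptor of the transcription factor complex of blood progenitors, had 51 normalised reads in wild type and 16 in the mutant (log2 -1.61, -2.60 to -0.82), on GRCz10 at chr18:38303882-38304130. It was the lowest ratio among the 3 lmo2 regions. The TSS region of lmo2 had 106 and 94, and its region inside the gene 94 and 53. The only flanking region of a gene on the list of known Npas4l targets was this one, and the list was not drawn up apart from these samples. The region 3710 bp upstream of tek, the angiopoietin receptor of vessels, had 61 and 22 (log2 -1.43, -2.23 to -0.72) at chr5:470151-470516. No other region of tek was in the table. At hand2, a basic helix-loop-helix factor of heart and pectoral fin, the values were 58 and 31 (log2 -0.88, -1.60 to -0.26), and its TSS region had 160 and 124.

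The other 3 of these genes had flanking regions with smaller differences. The fli1b region, 1911 bp out, had 1217 in wild type and 1068 in the mutant (log2 -0.19, -0.31 to -0.07), and the fli1a region had 390 and 455 (log2 0.22, 0.02 to 0.42). Both genes encode ETS factors of endothelial and blood progenitors, and their regions lay on opposite sides of 0. The centre of the fli1b region was also 2215.5 bp from the TSS of another gene, so its value need not belong to fli1b alone. The TSS region of fli1b had 667 and 709, and its region inside the gene 514 and 541. The fli1a region inside the gene had 235 and 209, and each of these intervals included 0. At hhex, a homeobox factor of endoderm and endothelium, the values were 46 and 65 (log2 0.49, -0.07 to 1.07), an interval that included 0, while its TSS region had 221 and 149 (log2 -0.57, -0.88 to -0.26). On the blood list, znfl2a, a zinc finger gene, had 138 and 36 (log2 -1.91, -2.51 to -1.38) at a region 1559 bp upstream, and its TSS region had 541 and 378. The low values were single regions rather than whole lists. The blood list had 3 of 6 regions below 0 and a median of 0.08 (-0.10 over its 5 upstream regions), with lcp1 at 253 and 301 and lmo4a at 244 and 320. At least 2-fold lower were 2 of the 6, lmo2 and znfl2a (33.3%, against 4.03% of all regions), and 0 were at least 2-fold higher. Beyond counting error 2 blood regions were lower and 2 higher, against 18.0% and 20% of all regions. The endothelial list had 7 of 12 below 0 and a median of -0.09. Beyond counting error 3 of its regions were lower and 2 higher, against 18.0% and 20% of all regions. The lower ones were at tek, fli1b and nrp2b, a co-receptor for vascular growth factors and semaphorins, the last at 212 and 147. The higher ones included fli1a. The highest ratio of the endothelial list was at ephb4a, with 16 and 27 (log2 0.72, -0.21 to 1.72), an interval that included 0. The list of heart and lateral plate genes had 5 of 8 below 0 and a median of -0.02. Beyond counting error 2 of its regions were lower and 1 higher, against 18.0% and 20% of all regions. Lower were hand2 and tbx20, a T-box factor of the heart, the latter at 36 and 18. The higher one was TAL2, at 69 and 110. TAL2 was taken by symbol, and whether it belongs to this lineage was not checked. Over the 5 regions with a mean of both libraries of at least 50, TAL2 among them, the median of this list was 0.37.

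Genes of paraxial mesoderm and somites, which form the trunk muscles and vertebrae, were the lineage list with the lowest median. Of its 23 flanking regions at 14 genes, 19 were below 0 and the median was -0.37, against 0.00 for all regions. Beyond counting error 11 were lower and 0 higher, where the background is 18.0% and 20%. The TSS regions of the list had a median of -0.10 and its 16 regions in gene bodies one of -0.01. The region 4688 bp past the TSS of ripply2, a repressor that sets somite boundaries, had 103 in wild type and 49 in the mutant (log2 -1.06, -1.61 to -0.57), while its TSS region had 60 and 67. MYF5, a master factor of muscle, had 129 and 96 at its upstream region and 88 and 49, and 93 and 54, at 2 regions on its 3′ side. Each of the 3 MYF5 intervals lay below 0. At dlc, a Notch ligand of the segmentation clock, the flanking region had 363 and 225 (log2 -0.69, -0.94 to -0.45) and the TSS region 168 and 124. MEOX1, a homeobox factor of the somite, had 119 and 80. The 4 regions above 0 belonged to dld, her7, uncx and pax3a, with log2 ratios from 0.06 to 0.21 and intervals that included 0.

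**Figure D4:**
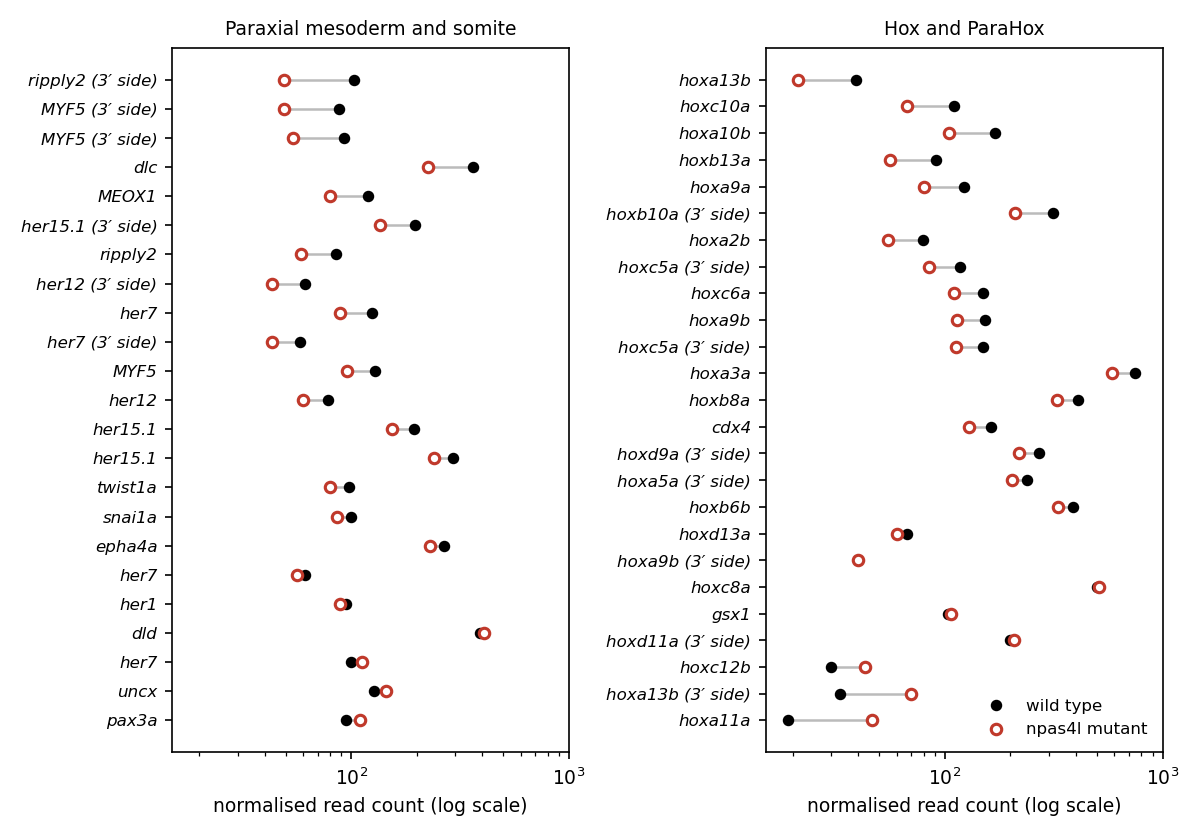
Normalised read count in wild type (filled) and mutant (open), on a log scale, of each flanking region of 2 gene lists, sorted by ratio; regions past the 3′ end of their gene are marked. The mutant point lies to the left of the wild type point in 19 of 23 regions of the paraxial mesoderm list and 18 of 25 of the Hox and ParaHox list.

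The list of Hox genes, the homeobox factors that set position along the body, and the related ParaHox genes had 18 of 25 flanking regions below 0 and a median of -0.33. Beyond counting error 14 were lower and 2 higher, against 18.0% and 20% of all regions. The ParaHox members were cdx4 and gsx1, with 1 region each. Here the TSS regions were also low, with a median of -0.26 and 41 of 53 below 0. The 14 regions in gene bodies had a median of -0.37. Hox genes lie close together, so a region flanking one gene can lie near the next. The hoxa10b region had 169 in wild type and 104 in the mutant, hoxc10a 110 and 67, hoxb10a 315 and 210 and hoxa9a 122 and 80. The most open one, at hoxa3a, had 743 and 588 (log2 -0.34, -0.50 to -0.18). Higher beyond counting error were a pair of low regions: hoxa11a had 19 and 46 (log2 1.23, 0.49 to 2.13) and the 3′ region of hoxa13b had 33 and 70 (log2 1.06, 0.48 to 1.73). The other hoxa13b region had 39 and 21, so the gene had regions on both sides. The regions of hoxc8a (500 and 511), hoxd11a (198 and 208) and the ParaHox gene gsx1 (103 and 107) were level within counting error.

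Basic helix-loop-helix genes had 32 of 44 flanking regions below 0, a median of -0.29 and 18 regions lower beyond counting error against 2 higher (18.0% and 20% of all regions), while their TSS regions had a median of 0.02. The 12 regions of the list in gene bodies had a median of -0.05. The list shares her genes with the Notch and paraxial lists. Besides id1 and hand2, the neuronal factor neurod4 had 272 in wild type and 194 in the mutant, the pancreas and hindbrain factor ptf1a 118 and 87 at 1519 bp, and tcf24 had 128 and 73 and 59 and 33 at 2 regions past its end. The 2 regions above 0 beyond counting error were at TAL2, a relative of the blood factor Tal1, with 69 and 110 (log2 0.67, 0.23 to 1.13), and at the clock-related repressor bhlhe40, with 85 and 119. Genes of the Notch pathway had 16 of 26 below 0 with a median of -0.14, the same as their TSS regions. At nrarpa, a feedback inhibitor of Notch, the flanking region had 554 and 348 (log2 -0.67, -0.87 to -0.47) and the TSS region 539 and 363, so both were lower by similar amounts. The her4 and her15 genes have near-identical copies, and reads can be split between these, so their values (147 and 93 at her4.1, for example) are uncertain.

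The Hedgehog and retinoic acid list had the lowest median of the lists with at least 6 flanking regions, -0.47, from 8 of 9 regions below 0 with 6 lower beyond counting error (18.0% of all regions), while its TSS regions had a median of -0.03. Its 18 regions in gene bodies had a median of -0.18. On the Hedgehog side, smo, the signal transducer of the pathway, had 145 in wild type and 86 in the mutant (log2 -0.75, -1.15 to -0.35). The ligand-binding inhibitor hhip had 69 and 40. The TSS region of smo had 355 and 426, above its wild type value. On the retinoic acid side, the binding protein genes crabp2b and crabp2a had 53 and 29 and 245 and 177, and the receptor gene rarab had 89 and 55. Only cyp26b1, an enzyme that degrades retinoic acid, was above 0, with 207 and 249 and an interval that reached 0.

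The other signalling lists were more mixed. Of 23 Wnt pathway regions 14 were below 0 (median -0.16). The ligand gene wnt3 had 1107 in wild type and 830 in the mutant (log2 -0.42, -0.55 to -0.28), the nuclear effector lef1 756 and 616, and the 2 regions of sp5l, a Wnt target, 130 and 69 and 141 and 104. The inhibitor gene dkk1a went the other way, with 67 and 128 (log2 0.92, 0.50 to 1.38), as did notum1a, with 347 and 449. The paralogue dkk1b had 151 and 109, so both dkk1 genes had intervals away from 0 on opposite sides. Of 17 regions on the FGF list 11 were below 0 (median -0.19), with the receptor gene fgfr4 at 172 and 127 and the feedback inhibitors spry1, spry2 and spry4 at log2 ratios from -0.21 to 0.11 over their 4 regions. The counts of this list include dusp12, dusp13a, dusp22b, dusp23a and dusp23b, phosphatase genes taken by symbol, with log2 ratios from -0.47 to 0.42. Whether these dusp genes act in the FGF pathway was not checked. Beyond counting error 6 FGF regions were lower and 3 higher, against 18.0% and 20% of all regions. The 2 FGF regions at least 2-fold higher (11.8%, against 3.78% of all regions) were low ones. They were fgfr1bl at 54 and 112 and fgfbp1b at 48 and 115. Of 28 BMP, Nodal and TGF-beta regions 13 were below 0 (median 0.04). Beyond counting error 6 of these were lower and 6 higher, against 18.0% and 20% of all regions. The BMP antagonist chd had 149 and 228 at 4761 bp (log2 0.61, 0.31 to 0.92). At 2778 bp it had 112 and 128, with an interval that included 0. The ventral factors vent and vox, targets of BMP signalling, had 347 and 281 and 305 and 250. A second vox region, more open, was level with 477 and 472.

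**Figure D5:**
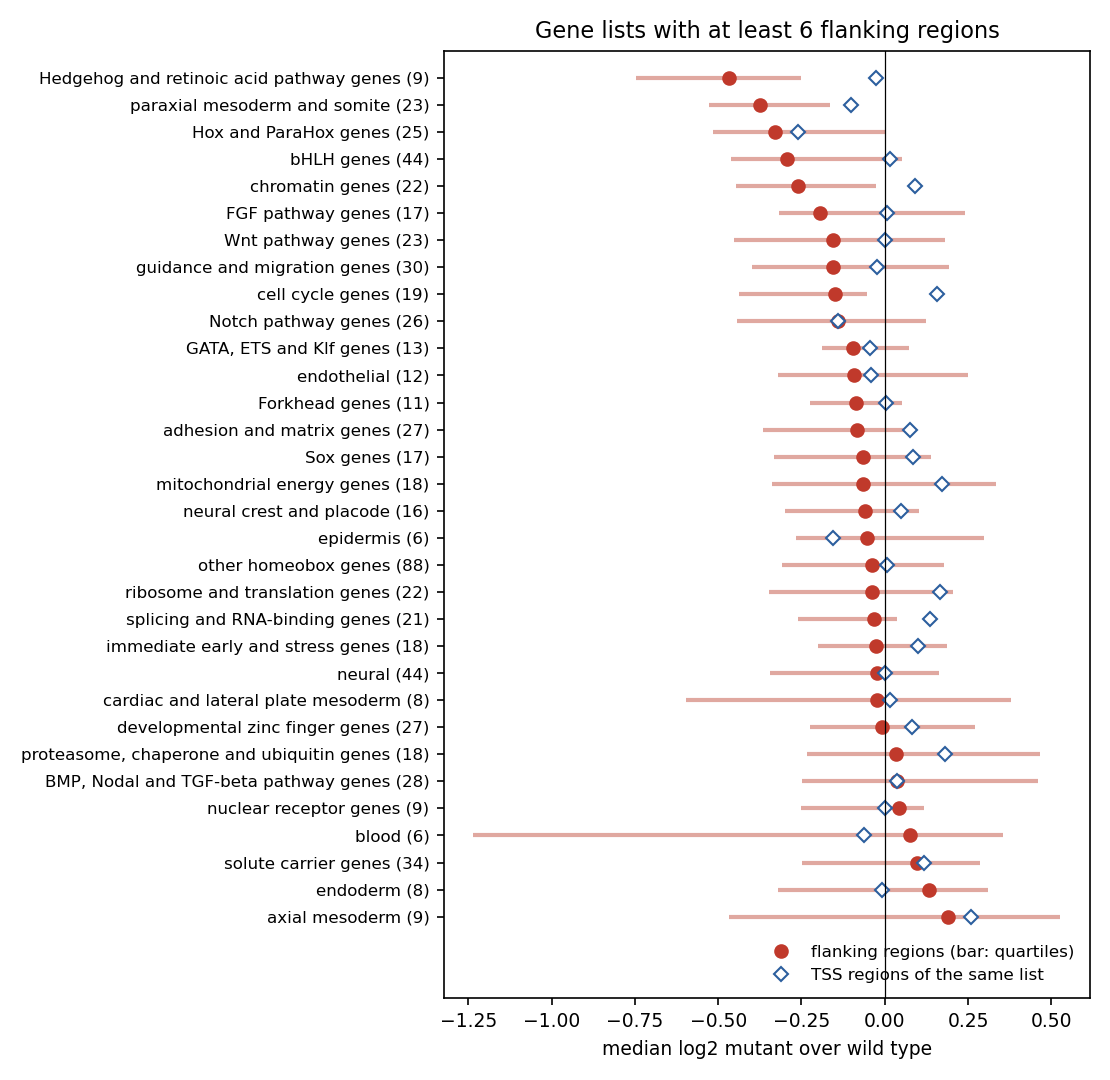
Median log2 ratio of mutant over wild type of the flanking regions (circle, with quartiles as a bar) and of the TSS regions (diamond) of each gene list with at least 6 flanking regions, whose number is in brackets. The lowest circles are those of the Hedgehog and retinoic acid (-0.47), paraxial mesoderm (-0.37), Hox and ParaHox (-0.33), basic helix-loop-helix (-0.29) and chromatin (-0.26) lists, and for each of these the diamond lies to the right of the circle.

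Neural, neural crest and other homeobox genes stayed near 0 as lists. The neural list had 23 of 44 regions below 0 (median -0.02), the neural crest and placode list 11 of 16 (median -0.06), the Sox list 9 of 17 (median -0.07) and the homeobox genes outside the Hox clusters 49 of 88 (median -0.04). Single regions within them differed in both directions. Lower beyond counting error were hmx2, a factor of ear and hypothalamus, at 128 in wild type and 69 in the mutant (log2 -0.88, -1.33 to -0.45), irx6a at 87 and 49, and the midbrain-hindbrain factors eng2a and eng2b at 52 and 30 and 80 and 52. Higher were zic5, a neural plate factor, at 144 and 215 (log2 0.57, 0.27 to 0.90), the SoxB1 factors sox19b at 293 and 405 and sox1a at 139 and 192 past their 3′ ends, and dlx3b, a factor of placodes, at 182 and 245. Other SoxB1 regions were below 0, both sox2 regions at 89 and 67 and 186 and 162, and sox3 at 96 and 76. The upstream region of sox1a was also below 0, at 38 and 29, and each of these intervals included 0. The most open neural regions, at sox19a, were level, with 1274 and 1338 on the 3′ side and 776 and 724 upstream. Forkhead genes had 8 of 11 below 0 (median -0.09), nuclear receptor genes 4 of 9 (median 0.04), developmental zinc finger genes 14 of 27 (median -0.01), GATA, ETS and Klf genes 8 of 13 (median -0.10) and T-box genes 1 of 4.

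The remaining lineage lists were small. Axial mesoderm had 4 of 9 regions below 0 (median 0.19), endoderm 3 of 8 (median 0.13), epidermis 3 of 6 (median -0.05) and intermediate mesoderm 2 of 5 (median 0.09). In the endoderm and intermediate mesoderm lists no region was beyond counting error in either direction, for example pax2a, a kidney and neural factor, with 118 and 129. Guidance and migration genes had 20 of 30 below 0 (median -0.16), among them cxcl12a, a chemokine that guides migrating cells, at 76 and 38 (log2 -0.98, -1.60 to -0.40). Adhesion and matrix genes had 15 of 27 below 0 (median -0.08), and immediate early and stress genes 9 of 18 (median -0.03).

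Among genes of general cell functions, flanking regions had lower medians than TSS regions. The whole classes differed in the same direction (0.00 for flanking and 0.11 for TSS regions). For solute carriers the medians were close, 0.10 and 0.12. Chromatin genes had 18 of 22 flanking regions below 0 and a median of -0.26, while their TSS regions had a median of 0.09. Their 31 regions in gene bodies had a median of -0.06. The corepressor gene bcor had 214 in wild type and 132 in the mutant, and 175 and 120, at its 2 regions, and the histone methyltransferase genes kmt2d and kmt2ba had 173 and 112 and 268 and 199. The coactivator gene ncoa3 had 600 and 438 (log2 -0.45, -0.64 to -0.27) and arid1ab, a subunit of the SWI/SNF remodeller, 851 and 697. Cell cycle genes had 16 of 19 below 0 and a median of -0.15, while their TSS regions had a median of 0.16. Their 15 regions in gene bodies had a median of -0.21, as low as the flanking ones. The cyclin gene ccnb1 had 69 and 34 on its 3′ side and the kinase gene aurkb 132 and 84, whereas mcm5, a subunit of the replicative helicase, had 10 and 47 and a TSS region of 80 and 301. In the other lists of this kind flanking regions had medians of -0.04 (ribosome and translation), -0.03 (splicing), -0.07 (mitochondrial energy), 0.03 (proteasome and chaperones) and 0.10 (solute carriers), and TSS regions medians from 0.12 to 0.18. Within the proteasome and chaperone list, psmg1, a proteasome assembly chaperone gene, had 196 and 831 (log2 2.08, 1.86 to 2.31), and tcp1, a chaperonin subunit gene, had 73 and 4.

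Ranked by ratio were regions with a mean of both libraries of at least 50, at genes with a symbol that is no clone name. The lowest of these were found at genes of varied function. Regions below that mean were not ranked, and some of them had ratios as low. The region 2849 bp upstream of abhd18, an abhydrolase gene, had 166 in wild type and 0 in the mutant. With a floor of 3 reads per library this was 52.0-fold lower, and the counting interval ended at log2 -5.39. The TSS region of abhd18 had 93 and 226 (log2 1.27, 0.93 to 1.64), so both regions of the gene differed in opposite directions. For cirbpa, which encodes a cold-inducible RNA-binding protein, the flanking region had 364 and 13 (log2 -4.70, -5.80 to -4.01) and the TSS region 1315 and 1427. For lamtor1, which anchors a nutrient-sensing complex to lysosomes, these were 347 and 19 (log2 -4.12, -4.95 to -3.50) and 684 and 546. The RNA helicase gene DHX37 had 105 and 2, and the kinase inhibitor gene PKIG had 119 and 4. Among genes with clone names, si:ch211-81n22.1 had 164 and 1 and si:ch211-234p6.9 had 128 and 1, which were lower ratios than that of cirbpa. Further low regions were at thrap3b (165 and 13), ngdn (138 and 32) and lztfl1 (85 and 21), whose 2 TSS regions had 79 and 109, and 78 and 88.

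No read in wild type was found for 4 flanking regions, of which those of slc6a16a and sptssb had the highest mutant values and that of ENSDARG00000100856, a gene without a symbol, had 238. At slc6a16a, a transporter gene of the SLC6 family, the region 1579 bp upstream had 0 in wild type and 942 in the mutant. With the same floor this was 334-fold higher, and the counting interval began at log2 8.08. A second region of slc6a16a, 3759 bp upstream, had 130 and 12 (log2 -3.33, -4.50 to -2.58), and its TSS region had 70 and 119. At sptssb, a subunit gene of the enzyme that starts sphingolipid synthesis, the values were 0 and 250. With the floor this was 88.8-fold higher, and the counting interval began at log2 6.16. The glycosyltransferase gene galnt7 had 11 and 141 (log2 3.56, 2.79 to 4.63) with a TSS region of 245 and 284. The netrin gene ntn5 had 15 and 142, the heme oxygenase gene hmox2b 16 and 122, the collagen gene col1a1a 23 and 131, and the ESCRT gene chmp6b 47 and 209. The genes abhd10a, mxf and crp had 18 and 94, 17 and 89, and 25 and 124. At most 3 reads in 1 of the libraries were found for 15 flanking regions (0.65%), against 8 TSS regions (0.06%) and 0.32% of all regions.

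At genes with both kinds of region, the flanking region was usually the less open one. Of 1212 flanking regions at 1113 genes with a TSS region, 416 (34.3%) had the higher wild type level, and the medians were 107.5 and 165 normalised reads. The log2 ratio was below that of the strongest TSS region in 683 of 1212 (56.4%), with medians of -0.02 and 0.07. Ratios of flanking and TSS region of a gene followed each other weakly across genes (Spearman 0.12, and 0.19 over 943 pairs with means of at least 50 in both, as a description). In 139 pairs the flanking interval lay wholly below the TSS interval and in 76 wholly above. Flanking regions of genes without a TSS region numbered 1085, with a median wild type level of 82 and a median log2 ratio of 0.04.

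The most open flanking region was on chromosome M, next to mt-nd1, with 254735 normalised reads in wild type and 224985 in the mutant (log2 -0.18). This is mitochondrial DNA and not nuclear chromatin, and it held 3.45% of the wild type reads that lay in regions. The other 5 regions of chromosome M had ratios from -0.15 to -0.19. Among nuclear regions the highest wild type level was at ENSDARG00000100278, with 5048 and 9400, and si:ch211-244k5.1 with 4008 and 7209 and ENSDARG00000101243 with 3218 and 5993 were also higher in the mutant. The region of vamp2, a synaptic vesicle gene, had 4840 and 5064 over 1697 bp, with a TSS region of only 258 and 313. The region 5337 bp from intu, a planar polarity gene, had 4498 and 3342 (log2 -0.43, -0.49 to -0.36). The other 4 of the 10 most open were closer to level: mettl6 on its 3′ side with 3195 and 3226, polh with 2527 and 2369, hpda with 2177 and 2435 and cep63 with 2133 and 2221. The widest regions were those of ENSDARG00000100278, ENSDARG00000101243 and si:ch211-244k5.1, which spanned 39743, 24936 and 16862 bp. These 3 had log2 ratios of 0.90, 0.90 and 0.85. The next widest nuclear one, 3519 bp at zgc:113276, had 93 and 189.

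Near the limit of 1000 bp, regions on both sides varied. Just inside it, ccnj at 1001 bp had 318 in wild type and 347 in the mutant, actr3 at 1002 bp had 1678 and 1934, and ENSDARG00000089986 at 1013 bp had 256 and 132. Just outside it, rnf19b at 999 bp had 161 and 158, tnfsf10l3 at 999 bp had 40 and 19, and calm1a at 987 bp had 379 and 371. The median log2 ratio was -0.07 for 66 flanking regions from 1000 to 1100 bp and -0.01 for 77 TSS regions from 900 to 1000 bp. The former had a median wild type level of 95 and a median width of 292.5 bp, below the 153 and 402 bp of the latter.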

How the data were processed

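ATAC-seq libraries of 1 wild type and 1 npas4l mutant embryo were used, grouped by the genotype in the labels. The submitters' processing notes name, without roles, the builds danRer10 and GRCz10 and the tools STAR 2.5.3a, Trimmomatic 0.36, MACS2, Picard 2.9.0, DESeq, DESeq2 1.14.1 and deepTools 2.5.4. Not given in the sources used here are the merging of regions, the handling of duplicates and any shift of read ends for the transposase. Library columns in the deposited table hold scores, which by their values are read counts that the authors normalised and rounded to whole numbers. Reads were recovered by dividing by 1.06505 (mutant) and 0.939 (wild type). The mutant factor was estimated from the values: 99.96% of 35811 mutant values up to 4000 were whole reads times the factor after rounding. The wild type factor was set to the reciprocal of the mutant factor and was not checked against the wild type values. Recovered reads served only for intervals and floors. By its values, the log2 ratio deposited by the authors is that of (mutant + 1) to (wild type + 1), and it understates differences of low regions. Per the file headers, the deposited fraction of overlap with the gene body and the distance to the TSS defined the classes. Coordinates are those of the table on GRCz10, and the sources used here do not give the base from which starts count.

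With 1 library per genotype no test was made. Regions were counted at 2-fold or more and where the exact 95% interval of the read split excluded 0. Where a library had 0, folds were computed with a floor of 3 reads in that library, which is a setting and not a confidence limit. Regions were summarised for 35 gene lists (10 lineages, 25 families) by symbol. The members and lists were chosen with earlier results of these data known, and list patterns were corrected after values were seen, to drop symbols caught wrongly and to match capitals. The dusp genes named above stayed on the FGF list, and TAL2 on the heart and lateral plate list. Named genes were all flanking regions of 17 blood, vessel and heart regulators, the 10 lowest and 10 highest ratios with a mean of at least 50 at genes whose symbol is no clone name, the 10 most open, the 5 widest, up to 4 per list with the largest ratio in size, all regions of genes with at least 3, and the 5 per direction that differed most from their TSS region. Others on the lists, genes with clone names or no symbol at the extremes, and the regions near the 1000 bp limit, were named after their values were seen. The npas4l locus and some other genes the rule names are not reported here. No genome of the build was at hand, so no sequence or motif is given. The counting code was checked on simulated data. Software versions were scipy 1.17.1, pandas 2.3.3, numpy 2.4.6 and matplotlib 3.10.9 under Python 3.11.15.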

Additional observations from a re-analysis of the deposited data

How the results depend on the processing

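The counts at 2-fold depended on low regions: 82 lower and 117 higher became 35 and 53 with a pseudocount of 20, 36 and 56 with a mean of both libraries of at least 50, and 11 and 28 with a mean of at least 100. The higher count exceeded the lower one in each. With both libraries scaled to equal sums over all regions, the median log2 ratio moved from 0.00 to -0.0288 and the share below 0 from 48.8% to 52.8%. The median width was 408 bp with a mean of at least 50, against 354 bp. The vamp2 ratio changed sign, to -0.0095, when ratios were centred within deciles of level. The other alternatives were pseudocount 5, decile centring, a distance above 2000 bp, 1 region per gene and widths under 1000 bp. Chosen after seeing the data were leaving out regions past the 3′ end, mitochondrial or very wide regions, or those with at most 3 reads in a library. These alternatives left both 2-fold counts within 1.5 times. The median and the share below 0 stayed inside their 95% intervals over regions. A pseudocount of 5 cannot change the sign of a ratio, so with it the share below 0 was fixed in advance. Centring on the median of all regions subtracts 0.00 and so only repeats the main result. Of the 34 list medians with at least 2 regions, the 32 with an interval stayed inside their 95% intervals over regions under each of 7 alternatives chosen after seeing the data, but 8 of them changed sign under at least 1: blood, cardiac and lateral plate mesoderm, axial mesoderm, endoderm, nuclear receptors, the BMP, Nodal and TGF-beta pathway, ribosome and translation, and immediate early and stress genes. The other 2 lists have too few regions for an interval, and their medians ran from 0.11 to 0.28 (T-box) and from 0.06 to 0.11 (intermediate mesoderm). Median centring was 1 of the 7 alternatives and could not move any list median, since it subtracts 0.00. The blood median went from 0.08 to -0.10 without regions past the 3′ end. For the blood, cardiac and lateral plate, epidermis and endoderm lists, with 6 to 8 regions, the interval is the full range of their ratios. Leaving out regions could therefore not move these medians outside it. The interval of axial mesoderm, with 9 regions, was also wide, from -0.49 to 0.61. Its median went from 0.19 to -0.31 with 1 region per gene and was still inside. The intervals take regions as independent and the alternatives reuse the same regions, so for short lists staying inside shows little. No paired analysis was possible because there was 1 library per genotype. The main limits are that 1 embryo stands for each genotype, that the authors' scaling is taken as given, and that regions at low counts have wide counting intervals.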
